A study of Mus musculus with 9 samples.

Results

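The proteasome genes were taken from the expression table by name. Every gene symbol made of Psm, one letter from a to g and a number, with or without further small letters, was a member, and 50 of the 55487 genes listed met this rule. The rule left out 5 names that end in -ps, which mark pseudogenes. The immunoproteasome genes Psmb8, Psmb9 and Psmb10 and the activator genes Psme1 and Psme2 were described apart from the constitutive subunits. One member, Psmc3ip, shares the name only, since it encodes a factor of meiotic recombination that binds an ATPase subunit. The 50 members lie on 16 chromosomes. Neighbouring members were Psmb5 and Psmb11 on chromosome 14 (3410 bases apart), Psme1 and Psme2 on the same chromosome (5911 bases apart) and Psmb9 and Psmb8 on chromosome 17 (9956 bases apart), in each case on opposite strands.

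The proteasome degrades proteins that carry chains of ubiquitin. Its 20S core is a barrel of outer alpha rings and inner beta rings, and 3 kinds of beta subunit, encoded by Psmb5, Psmb6 and Psmb7, hold the cutting sites. The 19S particle caps the barrel, and its base unfolds the substrate with ATPases while its lid removes the ubiquitin. In lymphocytes and in cells exposed to interferon-gamma, Psmb8, Psmb9 and Psmb10 can take the places of Psmb5, Psmb6 and Psmb7, which gives the immunoproteasome, and the PA28 activator made of Psme1 and Psme2 can open the barrel.

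RNA was measured in splenic CD4+ T cells of wild type C57BL/6 mice, purified by negative selection, in 3 groups of 3 libraries. T cells of the first group were kept in medium, and their culture time is not given in the sources used here. Activated T cells received Abs to CD3 at 3 µg/ml and to the costimulatory receptor CD28 at 2 µg/ml for 24 h. TRAIL-treated activated T cells received the same Abs with TRAIL (10 µg/ml), a ligand of the TNF superfamily, for the same time, and TRAIL in the absence of Abs was not analysed here. All mice carried the functional Trail-r gene (Trail-r+/+). Nothing in the labels says that the libraries of a group came from separate mice or cultures, so the p-values measure the spread between these libraries, which may be technical. The values are TPM, the reads of a gene divided by its length and scaled to a total of 1000000 per library. TPM is a relative level per length. It keeps no read total, so the depth behind each value is unknown.

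Differences are given on the scale of log2(TPM + 1) and were tested with limma across 15536 genes that reached 1 TPM in 3 or more libraries, with all 9 libraries fitted together. A gene was called when its p, adjusted by the method of Benjamini and Hochberg, was below 0.05 and its log2 fold change was 1 or more in either direction. With 3 libraries a side an exact two-sided test stops at p = 0.1, so limma's estimate of the spread, shared over genes, carries the tests of single genes. Of the 50 members, 48 passed the filter. Psma8, a testis-specific alpha subunit, was at 0.218 to 0.730 TPM, and Psmb11, the beta subunit of thymic epithelium, was listed at 0.0001 TPM, the lowest value of the table, in every library. The lowest value among the 48 genes tested was 4.39 TPM, for Psmc3ip in TRAIL-treated replicate 2, so no member passed through 1 group alone.

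Markers of other cells differed between the groups. The summed TPM of 8 T cell markers was 2780 to 2970 in medium, 2610 to 2760 in activated and 2830 to 3070 in TRAIL-treated libraries, and all 8 were detected. This sum joins markers that differed in opposite directions, since 1 T cell marker was called higher and 1 lower after activation. The sum of 10 B cell markers was 2320 to 2390, 171 to 191 and 970 to 1090 TPM in the same order, that of 13 myeloid markers 1890 to 2020, 75.7 to 84.5 and 1540 to 1730 TPM, and that of 6 erythroid markers 2080 to 2530, 24.8 to 39.6 and 610 to 660 TPM. The sums of 5 neutrophil markers were 466 to 757, 25.2 to 39.9 and 327 to 418 TPM, those of 6 dendritic cell markers 54.3 to 59.1, 9.67 to 13.3 and 33.2 to 35.5 TPM, those of 4 NK cell markers 205 to 279, 210 to 283 and 70.8 to 77.2 TPM, and those of 2 CD8 T cell markers 110 to 118, 94.2 to 105 and 46.9 to 49.4 TPM. The NK cell sum rests mostly on 1 marker, and the other 3 were called lower after activation. The dendritic cell sum also joins opposite directions, since 1 of its 6 markers was higher after activation at the adjusted p alone and called lower with TRAIL. The sums of B cell, myeloid, dendritic cell, neutrophil and erythroid markers, and the levels of these 3 NK cell markers, were lowest in the activated libraries, where most proteasome genes were highest. Their part in the results below was not tested, and in bulk RNA fewer cells of a type and less RNA per cell cannot be told apart.

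Most proteasome genes were higher in activated T cells than in medium, and all but 1 of the 48 tested were lower in TRAIL-treated activated T cells than in activated cells at the adjusted p alone. The 14 constitutive 20S genes summed to 1621 ± 266 TPM in medium (SD, n = 3), 3611 ± 514 TPM after activation and 1396 ± 67.0 TPM with TRAIL. The 17 genes of the 19S base and lid summed to 1647 ± 86.7, 3587 ± 40.1 and 1444 ± 28.8 TPM in the same order. The sum of the 49 members without Psmc3ip went from 0.467% of all TPM in medium to 0.978% in activated and 0.394% in TRAIL-treated cells. For each of the 4 gene groups plotted, the activated libraries lay above all others.

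**Figure D1:**
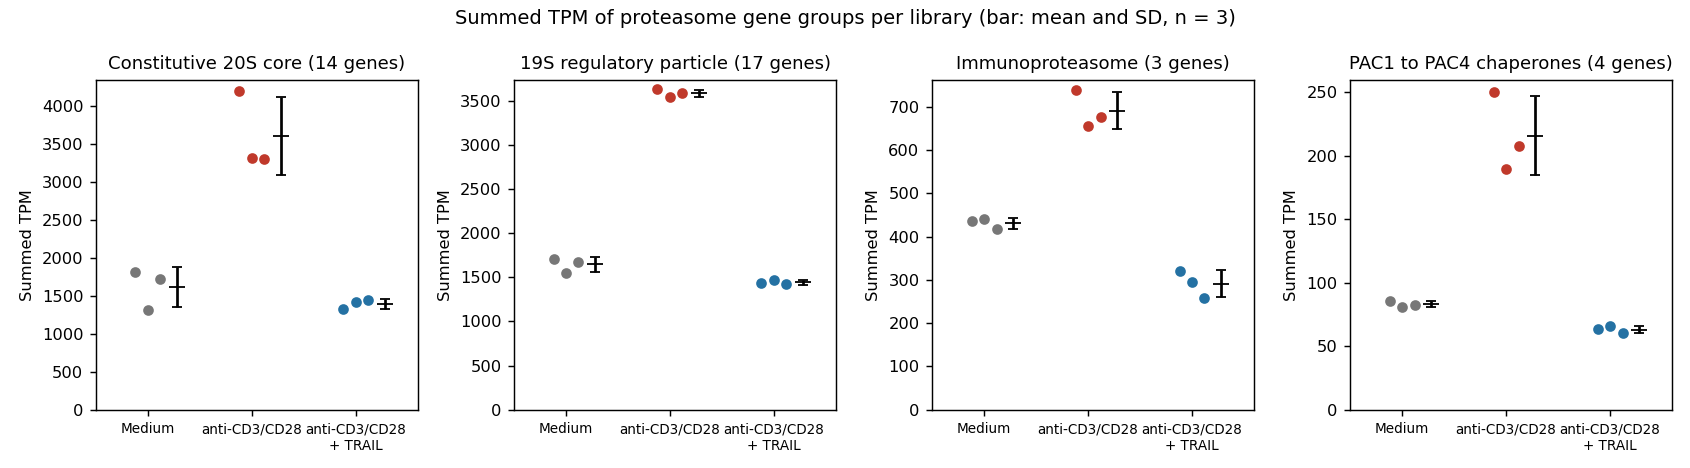
Summed TPM per library (points) for the constitutive 20S core, the 19S base and lid, the immunoproteasome and the PAC1 to PAC4 chaperones, in medium, with anti-CD3/CD28 Abs and with Abs plus TRAIL. Bars are the mean and SD of 3 libraries. In each panel the 3 activated libraries lie above the other 6, and activated replicate 1 is the highest of its group.

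In activated against medium cells, 29 of the 48 genes (60.4%) were called higher, beside 12.4% of all genes tested, and 0 were called lower, beside 19.5% of all genes. At an adjusted p under 0.05 alone, 43 members (89.6%) were higher and 1 (2.08%) was lower, against 28.8% and 40.0% of all genes, and at an unadjusted p under 0.05 the counts were again 43 and 1. The median log2 fold change was 1.11, beside −0.15 over all genes. In TRAIL-treated against activated cells, limma called 35 members (72.9%) lower and 0 higher, beside 14.3% and 16.6% of all genes. At the adjusted p alone 47 (97.9%) were lower and 0 were higher, against 33.5% of all genes lower and 33.5% higher, with the same 47 and 0 at an unadjusted p. The median was −1.39, beside 0.01 over all genes. No all-gene share is given here for the unadjusted counts. These comparisons share the activated libraries, so the rise and the fall are not separate evidence.

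**Figure D2:**
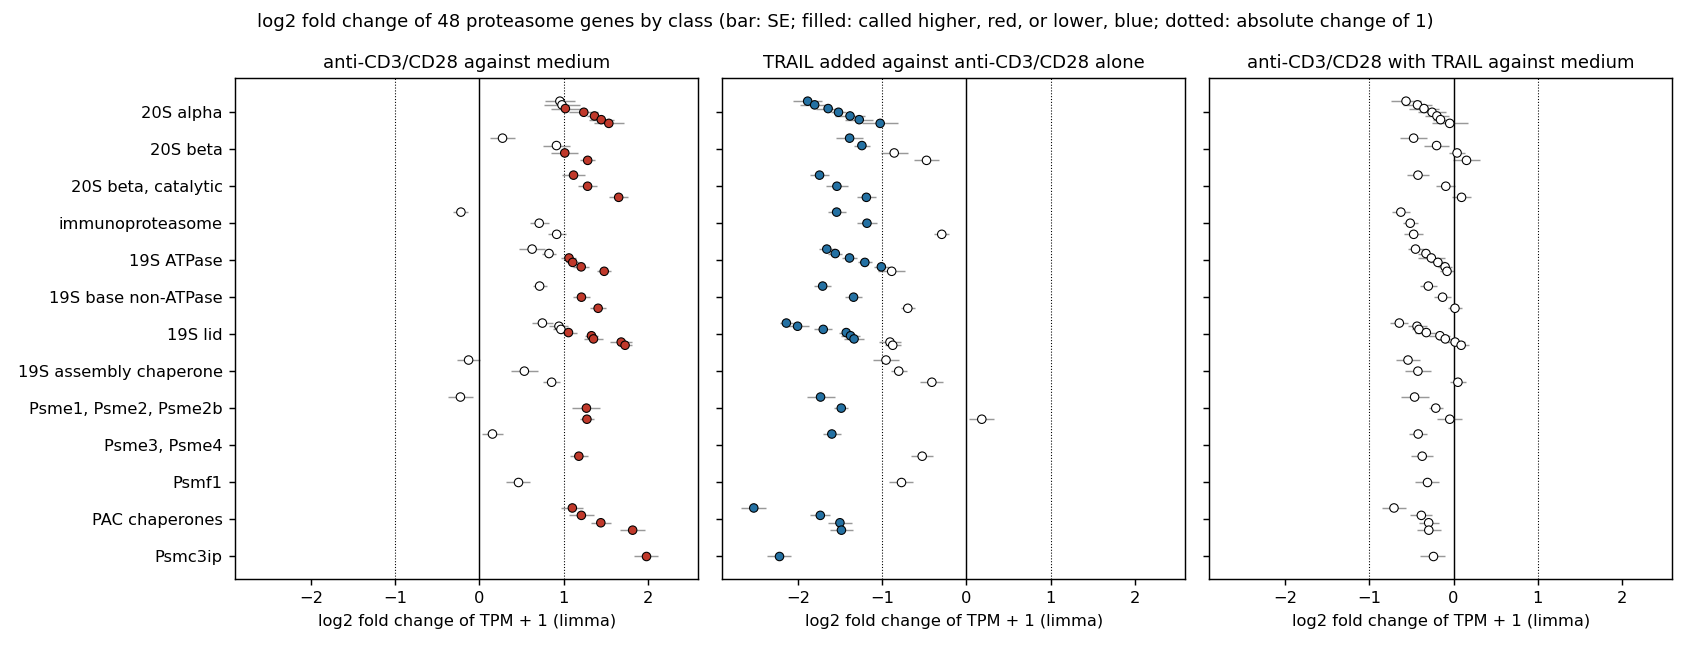
Log2 fold change of TPM + 1 (x axis) with its SE for the 48 genes tested, by class (rows), in the 3 comparisons (panels). Filled points were called and dotted lines mark an absolute change of 1. In the left panel 29 points are filled on the right, in the middle panel 35 are filled on the left, and in the right panel none is filled.

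Against medium, TRAIL-treated activated cells had no member called in either direction by limma, beside 2.49% of all genes called higher and 2.13% called lower. At the adjusted p alone 16 members (33.3%) were lower and 0 higher, beside 24.6% and 8.03% of all genes. At an unadjusted p the counts were 24 and 0, without an all-gene share to read them against. The median over members was −0.29 and that over all genes −0.18. The 16 genes were Psma4, Psmb3, Psmb7, Psmb8, Psmb9, Psmb10, Psmc1, Psmc2, Psmd1, Psmd5, Psmd7, Psmd11, Psmd13, Psme3, Psmg2 and Psmg3. This count depended on the scaling of the libraries, with 5 members after median-of-ratios scaling and 9 after quantile normalization. The all-gene shares under these scalings are not given here, so whether the drop is particular to the members cannot be read. These scalings moved the median of all genes by 0.16 and 0.14 on the log2 scale in this comparison, by 0.14 and 0.19 for activated against medium cells and by 0.02 and −0.06 for TRAIL-treated against activated cells.

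Among the alpha ring genes, whose products gate the barrel, all 7 were called lower with TRAIL, beside 14.3% of all genes, and 5 were called higher after activation, beside 12.4%. Psma7 was the most abundant gene of the constitutive core in all groups. It was at 231, 160 and 227 TPM in medium, 637, 516 and 522 TPM after activation and 171, 172 and 189 TPM with TRAIL. The activated libraries lay far above the rest, and medium and TRAIL-treated libraries overlapped. Its log2 fold change was 1.45 ± 0.15 (SE) after activation and −1.64 ± 0.15 with TRAIL. Psma5 was the least abundant in each group, at 48.5 ± 8.67, 143 ± 30.1 and 37.6 ± 4.90 TPM, with a log2 fold change of 1.54 after activation and −1.89 with TRAIL. Near-identical copies limit the reading of this gene, since the pseudogene Psma5-ps matched 99.1% of 948 aligned bases. The sum of Psma5 and Psma5-ps was 56.0, 163 and 44.3 TPM, which gave ratios of 2.91 after activation and 0.271 with TRAIL.

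Psma1 and Psma3 were higher after activation (log2 fold change 0.96 and 0.98) without reaching the fold threshold. Psma4 was also lower with TRAIL than in medium at the adjusted p alone, by 0.56 on the log2 scale (adjusted p = 0.032, limma). The highest constitutive 20S gene was 4.25 times the lowest in medium, 3.90 times in activated and 4.71 times in TRAIL-treated cells.

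Of the 4 beta ring genes without a cutting site, Psmb2 and Psmb4 were called higher after activation and Psmb2 and Psmb3 were called lower with TRAIL. Psmb1 stood apart from the others. It was at 164, 113 and 154 TPM in medium, 200, 160 and 159 TPM after activation and 124, 123 and 124 TPM with TRAIL. Activated and medium libraries overlapped, and the log2 fold change of 0.27 ± 0.14 did not pass the test (adjusted p = 0.116, limma), whereas the fall of 0.47 with TRAIL passed at the adjusted p alone (0.0142).

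RefSeq promoter windows on GRCm38.p6, from 250 bases before to 50 bases after the start, were found for 42 of the 50 members (45 windows) and for 32851 starts in all. Stretches of the catalytic genes other than Psmb7 are printed 5′ to 3′ because the ratios between them were tested, with the letters of a searched motif in capitals. For Psmb5 (chr14:54618023-54618142, minus strand), Psmb6 (chr11:70525237-70525356, plus strand) and Psmb10 (chr8:105938445-105938564, minus strand) these are the 120 bases before the first annotated start. For Psmb8 (chr17:34198088-34198116, plus strand) and Psmb9 (chr17:34187324-34187348, minus strand), whose RefSeq windows fall inside an exon of a longer GENCODE transcript, only the match with 10 bases on each side is shown.
Psmb5: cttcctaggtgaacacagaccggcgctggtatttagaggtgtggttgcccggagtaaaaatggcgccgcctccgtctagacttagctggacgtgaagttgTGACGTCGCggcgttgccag
Psmb6: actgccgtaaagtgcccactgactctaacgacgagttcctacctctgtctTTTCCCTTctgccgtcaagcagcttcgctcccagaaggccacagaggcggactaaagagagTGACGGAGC
Psmb8: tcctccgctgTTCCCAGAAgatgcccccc
Psmb9: gcagccgctgATTGGaaagccgagc
Psmb10: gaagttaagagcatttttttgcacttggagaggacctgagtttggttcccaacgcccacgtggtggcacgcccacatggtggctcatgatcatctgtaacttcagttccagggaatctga

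In Psmb5 and Psmb6 the capitals mark TGACNNNGC, the core of the antioxidant response element, starting 47 and 9 bases before the RefSeq start, and Psmb6 also holds AANNGAAA, an interferon regulatory factor core, on the other strand. In Psmb8 they mark TTCNNNGAA, the gamma-activated site, and in Psmb9 CCAAT on the other strand. Psmb10 held none of the 4 motifs in its window. All motifs were searched on both strands of the whole window. TGACNNNGC was found in 13.3% of the members' windows and 12.4% of all windows, TTCNNNGAA in 6.67% and 8.3%, AANNGAAA in 28.9% and 23.9% and CCAAT in 33.3% and 37.4%. The members that held TGACNNNGC were Psmb5, Psmb6, Psmc6, Psmd9, Psmd12 and Psme4, and those with TTCNNNGAA were Psmb8, Psmd2 and Psmg1. By class, CCAAT was found in 5 of 8 windows of the alpha ring genes. AANNGAAA was found in 3 of 6 lid windows, 2 of 3 PAC windows and 0 of 3 immunoproteasome windows. The classes hold few windows each, and differences between them were not tested. A match describes these letters only.

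The genes of the constitutive cutting sites were all called higher after activation and lower with TRAIL, beside 12.4% and 14.3% of all genes. Psmb5, the chymotrypsin-like subunit, was at 66.4, 62.2 and 69.2 TPM in medium, 250, 192 and 191 TPM after activation and 61.0, 63.3 and 61.1 TPM with TRAIL. Psmb6, the caspase-like subunit, was at 124, 108 and 136 TPM, then 327, 286 and 286 TPM, then 116, 138 and 140 TPM. Psmb7, the trypsin-like subunit, was at 132, 98.8 and 124 TPM, then 301, 240 and 233 TPM, then 82.4, 87.7 and 93.0 TPM. In each of these genes the activated libraries did not overlap with any other library, and the TRAIL-treated libraries of Psmb5 and Psmb6 overlapped with medium. Psmb5 rose by 1.65 ± 0.11 on the log2 scale and fell by 1.74 ± 0.11 with TRAIL, with adjusted p = 5.3e-07 and 3.9e-07 (limma). Psmb6 rose by 1.28 ± 0.12 and fell by 1.19 ± 0.12, and Psmb7 rose by 1.12 ± 0.14 and fell by 1.54 ± 0.14. Psmb7 was the only one of these genes that was also below medium with TRAIL at the adjusted p alone (log2 fold change −0.42, adjusted p = 0.0374).

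**Figure D3:**
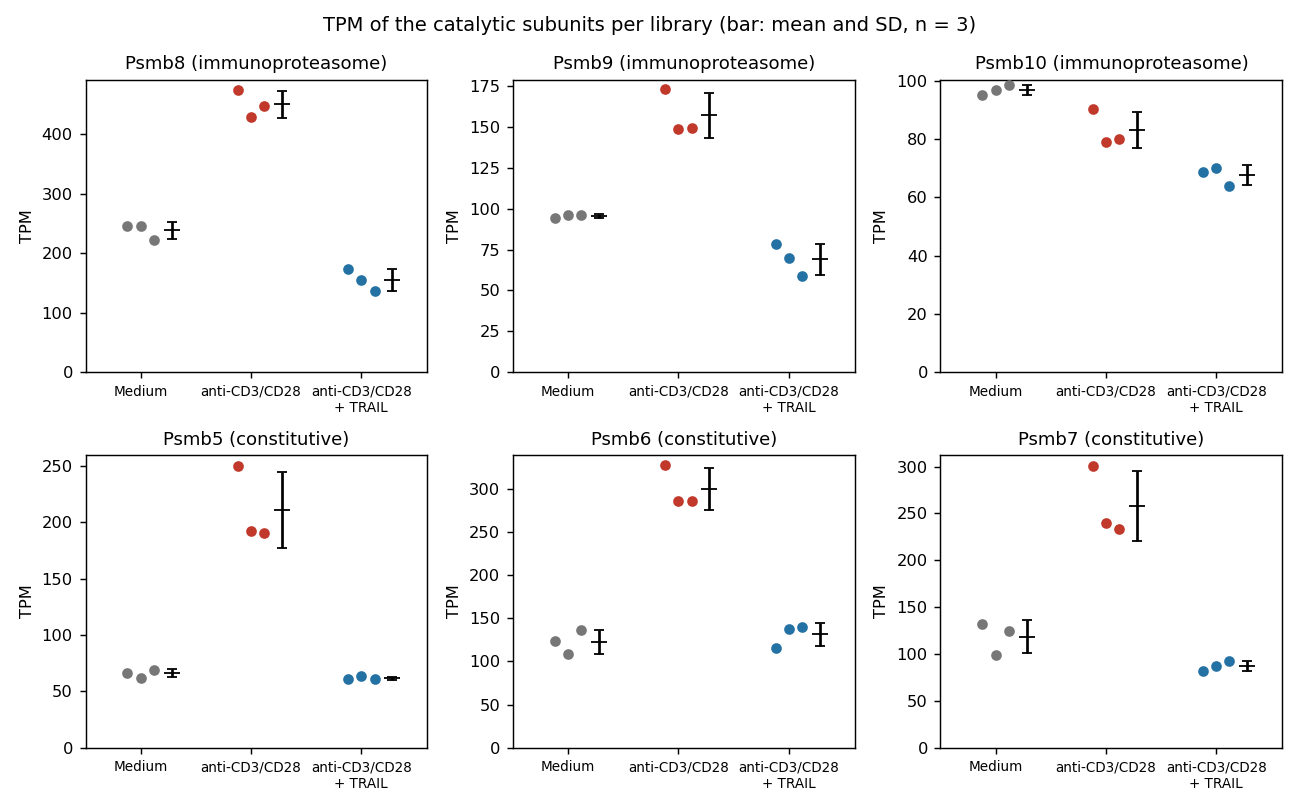
TPM per library (points, y axis from 0) of the immunoproteasome genes in the upper row and their constitutive counterparts in the lower row, in the 3 groups, with the mean and SD of 3 libraries. The activated libraries are the highest for every gene but Psmb10, where the medium libraries are the highest and the TRAIL-treated libraries the lowest.

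The log2 fold changes of the immunoproteasome genes after activation ran from −0.22 to 0.92, beside 1.12 to 1.65 for their constitutive counterparts. Psmb8 (chromosome 17, 34197721 to 34201454, GRCm38) was at 246, 247 and 222 TPM in medium, 475, 428 and 448 TPM after activation and 174, 154 and 136 TPM with TRAIL. Psmb9 (chromosome 17, 34181987 to 34187764) was at 94.2, 96.4 and 96.0 TPM, then 173, 149 and 149 TPM, then 78.3, 69.8 and 58.9 TPM. Psmb10 (chromosome 8, 105935735 to 105938444) was at 95.0, 97.0 and 98.7 TPM, then 90.4, 79.0 and 80.1 TPM, then 68.8, 70.3 and 63.8 TPM. The 3 groups did not overlap in any of these genes, and the TRAIL-treated libraries were the lowest in each.

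None of the 3 was called after activation by limma with the TPM as deposited. At the adjusted p alone, Psmb8 was higher by 0.92 ± 0.11 (adjusted p = 2.7e-05) and Psmb9 by 0.71 ± 0.11 (0.00029) on the log2 scale. Psmb8 passed the fold threshold under median-of-ratios scaling, at 1.08. Psmb10 differed from medium by −0.22 ± 0.09 (adjusted p = 0.0461), a call at the adjusted p alone that was lost under median-of-ratios scaling (−0.06, adjusted p = 0.611), with the replicate block (adjusted p = 0.077), without a trend in the variance (0.0681), with only these 2 groups in the fit (0.0684) and without medium replicate 1, 2 or 3, activated replicate 2 or 3 or TRAIL-treated replicate 1 or 2 (0.0612 to 0.146). With TRAIL, Psmb8 fell by 1.54 ± 0.11 and Psmb9 by 1.18 ± 0.11, both of them called, and Psmb10 was lower at the adjusted p alone (log2 fold change −0.29 ± 0.09, adjusted p = 0.0131). Psmb9 missed the fold threshold in this comparison under quantile normalization (−0.95), and Psmb10 missed the adjusted p (0.242).

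All 3 immunoproteasome genes were below medium in TRAIL-treated cells at the adjusted p alone, beside 24.6% of all genes, whose median was −0.18. The log2 fold changes were −0.63 for Psmb8 (adjusted p = 0.00208), −0.47 for Psmb9 (0.0113) and −0.51 for Psmb10 (0.0022). Under median-of-ratios scaling Psmb8 and Psmb10 still passed (adjusted p = 0.0139 and 0.0452) and Psmb9 did not (0.0955). Together the 3 genes summed to 431 ± 12.2 TPM in medium, 691 ± 42.7 TPM after activation and 291 ± 31.4 TPM with TRAIL. Psmb9 shares 212 exonic bases with Tap1 on the other strand, at a mean of 234 TPM for Tap1, and whether reads were counted by strand is not given, so reads of this stretch cannot be told apart. In all, 15 members share exonic bases with another gene, 12 of them with one on the other strand, among them Psmb7 with Nek6 (405 bases) and Psmc3ip with Mlx (385 bases).

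Each immunoproteasome subunit takes the place of one constitutive subunit, so the balance was measured as the ratio of their TPM within a library. The tests used the log2 ratio with a pseudocount of 1 TPM. The scaling of a whole library cancels in this ratio apart from the pseudocount, so the small shift under median-of-ratios scaling was fixed in advance. Psmb8 to Psmb5 was 3.70, 3.97 and 3.21 in medium, 1.90, 2.23 and 2.35 after activation and 2.86, 2.44 and 2.22 with TRAIL. Medium libraries lay above the rest, and activated and TRAIL-treated libraries overlapped. Psmb9 to Psmb6 was 0.760, 0.890 and 0.706 in medium, 0.529, 0.521 and 0.522 after activation and 0.677, 0.506 and 0.421 with TRAIL, again with the medium libraries highest. Psmb10 to Psmb7 was 0.718, 0.982 and 0.793 in medium, 0.3, 0.329 and 0.344 after activation and 0.835, 0.802 and 0.686 with TRAIL. Here the activated libraries were the lowest and TRAIL-treated libraries overlapped with medium.

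The exact permutation test over the 3 groups (smallest possible p 0.00357) gave p = 0.0107 for Psmb8 to Psmb5, 0.0571 for Psmb9 to Psmb6 and 0.025 for Psmb10 to Psmb7. Adjusted over these 3 pairs the exact permutation values were 0.0321, 0.0571 and 0.0375. Without medium replicate 2 both adjusted values under 0.05 became 0.0643. Without medium replicate 1 or 3, in tests with the same number of arrangements, they stayed at 0.0321 to 0.0375. The log2 differences between activated and medium cells without medium replicate 2 were −0.67 for Psmb8 to Psmb5 and −1.21 for Psmb10 to Psmb7. With all libraries, the mean log2 ratio of Psmb10 to Psmb7 differed by −1.34 between activated and medium cells and by 1.24 between TRAIL-treated and activated cells. For Psmb8 to Psmb5 these differences were −0.74 and 0.20, and for Psmb9 to Psmb6 −0.58 and 0.01. The test covered the 3 groups together, so differences between single groups were not tested. Without TRAIL-treated replicate 1, the adjusted exact permutation value of Psmb9 to Psmb6 was 0.0107. Its difference between TRAIL-treated and activated cells then turned to −0.176.

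**Figure D4:**
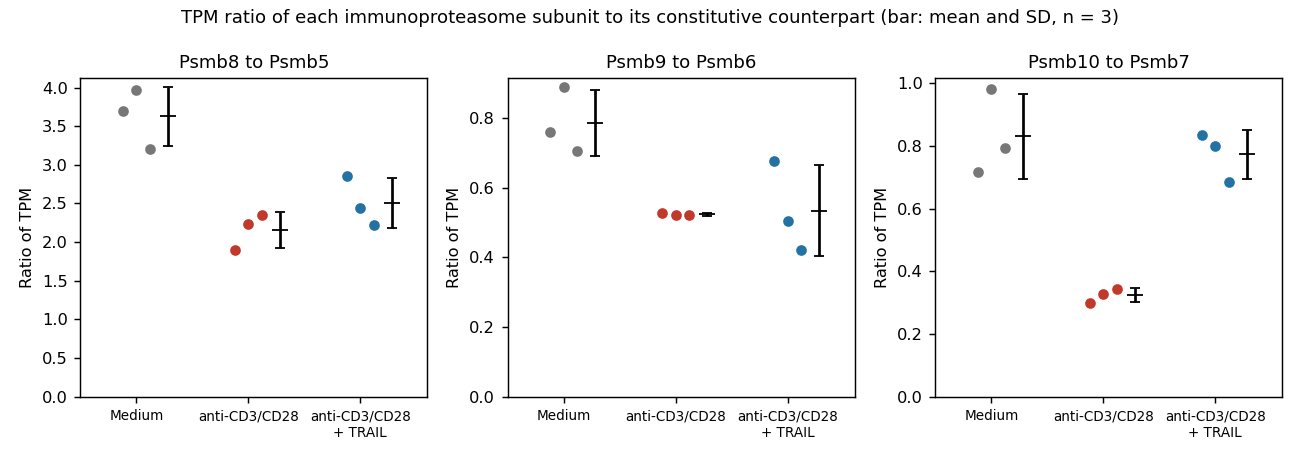
Ratio of the TPM of each immunoproteasome gene to that of its constitutive counterpart per library (points, y axis from 0), with the mean and SD of 3 libraries. Medium libraries are the highest for Psmb8 to Psmb5 and Psmb9 to Psmb6, and for Psmb10 to Psmb7 the activated libraries, at 0.3 to 0.344, lie below all others.

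The 19S genes moved with the core. All 17 genes of the base and lid were higher after activation and lower with TRAIL at the adjusted p alone, with 11 called higher and 13 called lower, beside all-gene shares of 28.8% and 33.5% at the adjusted p alone and 12.4% and 14.3% called. Of the 6 ATPase genes, which unfold the substrate, 4 were called higher after activation and 5 lower with TRAIL. Psmc5 rose by 1.48 ± 0.08 on the log2 scale, from 87.9 ± 2.77 TPM to 247 ± 14.2 TPM, and fell by 1.56 ± 0.08 with TRAIL. Psmc3 was the most abundant 19S gene, at 185 ± 15.3, 329 ± 12.4 and 163 ± 5.53 TPM.

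In the base, Psmd1 and Psmd2, the large scaffold subunits, were called in both comparisons, and the ubiquitin receptor gene Psmd4 was at 135 ± 6.85, 222 ± 5.41 and 137 ± 7.84 TPM with log2 fold changes of 0.71 and −0.70. In the lid, 5 of 8 genes were called higher after activation and 6 lower with TRAIL, beside 12.4% and 14.3% of all genes. Psmd7 was at 78.6, 79.7 and 79.5 TPM in medium, 270, 263 and 263 TPM after activation and 60.2, 62.5 and 55.7 TPM with TRAIL. These libraries were close within each group and the 3 groups did not overlap. Psmd7 pairs with Psmd14, the enzyme that removes ubiquitin. The log2 fold change of Psmd7 was 1.73 ± 0.08 after activation (adjusted p = 2.9e-08, limma) and −2.14 ± 0.08 with TRAIL (8.4e-09).

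Psmd3, a lid subunit, was at 72.9, 101 and 85 TPM in medium, 244, 293 and 296 TPM after activation and 71.8, 71.4 and 61.8 TPM with TRAIL. All activated libraries of Psmd3 were above the rest, and it fell by 2.01 ± 0.13 with TRAIL on the log2 scale. Psmd14 was at 68.3 ± 9.0, 176 ± 18.6 and 68.8 ± 2.33 TPM and was called in both comparisons. Psmd11 was the 19S gene with the largest difference between TRAIL-treated and medium cells, at 39.4 ± 4.88 against 61.9 ± 3.47 TPM (log2 fold change −0.64, adjusted p = 0.00177). The adjusted p of Psmd11 was 0.00225 with median-of-ratios scaling and 0.00169 with quantile normalization.

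Among the genes that assemble the particles, all 4 PAC chaperone genes, which build the alpha ring, were called higher after activation and lower with TRAIL. Of all genes tested, 12.4% were called higher and 14.3% lower in these comparisons. Psmg3 was at 10.3, 9.74 and 11.1 TPM in medium, 46.1, 36.0 and 35.9 TPM after activation and 5.14, 7.35 and 5.57 TPM with TRAIL. Its 3 groups did not overlap, and its fall of 2.53 ± 0.15 with TRAIL on the log2 scale was the largest among the members (adjusted p = 1.8e-07, limma). Psmg3 was also below medium with TRAIL by 0.71 ± 0.15 (adjusted p = 0.00563). Psmg1, Psmg2 and Psmg4 rose by 1.21, 1.10 and 1.44 and fell by 1.5, 1.48 and 1.74 on the log2 scale, and the 4 genes summed to 83.2, 216 and 63.1 TPM. None of the 3 genes for chaperones of the 19S base reached the fold threshold in any comparison, but at the adjusted p alone 2 were higher after activation and 3 were lower with TRAIL, beside 28.8% and 33.5% of all genes. These are the directions of the PAC genes, and the difference between the classes was not tested. Psmd9 was at 12.9 ± 0.62, 24.1 ± 0.89 and 13.4 ± 0.90 TPM, and Psmd10 at 30.2 ± 6.67, 43.6 ± 4.35 and 22 ± 2.26 TPM. Psmd5, named after its values were seen because it completes this class, was at 24.5 ± 4.31, 22.2 ± 2.24 and 16.4 ± 0.98 TPM, and its log2 fold change after activation was −0.13 (adjusted p = 0.423).

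The activator genes differed in their values. Psme1, the alpha subunit of PA28, was at 296, 290 and 296 TPM in medium, 745, 695 and 702 TPM after activation and 257, 268 and 238 TPM with TRAIL. The activated libraries lay far above the rest, and Psme1 rose by 1.28 ± 0.08 on the log2 scale and fell by 1.49 ± 0.08. Psme2, the beta subunit, was at 167, 142 and 136 TPM, then 415, 298 and 371 TPM, then 102, 134 and 89.9 TPM. It was called in both comparisons, with log2 fold changes of 1.27 ± 0.17 and −1.73 ± 0.17.

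Psme2b, an intronless copy of Psme2 on chromosome 11, was at 197, 206 and 232 TPM in medium, 169, 226 and 153 TPM after activation and 222, 182 and 212 TPM with TRAIL. All 3 groups overlapped, and Psme2b passed the test in no comparison. It matched Psme2 at 99.4% of 794 aligned bases, so the division of reads between them is uncertain. Their sum was 360 ± 10.2, 544 ± 34.4 and 314 ± 11.2 TPM, with ratios of 1.51 after activation and 0.577 with TRAIL, whereas Psme2 alone gave ratios of 2.44 and 0.3.

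Psme3, the nuclear activator PA28 gamma, rose by 1.18 ± 0.11 and fell by 1.60 ± 0.11 on the log2 scale, at 115 ± 11.2, 262 ± 22.5 and 85.7 ± 7.23 TPM. Psme4, the PA200 activator, was at 32.3 ± 2.00, 36.3 ± 5.80 and 24.8 ± 2.21 TPM, and its activated and medium libraries overlapped (log2 fold change 0.15, adjusted p = 0.312). With TRAIL its log2 fold change was −0.53 ± 0.13 (adjusted p = 0.00461), below the fold threshold. Psmf1, an inhibitor of the core, was at 17.7 ± 2.13, 24.6 ± 1.95 and 14 ± 2.35 TPM and did not reach the fold threshold, but it passed at the adjusted p alone after activation (log2 fold change 0.46, adjusted p = 0.0147, limma) and with TRAIL (−0.78, 0.00067). Psmc3ip, the gene that shares the name only, was at 6.24 ± 0.91, 27.6 ± 3.64 and 5.09 ± 0.61 TPM, with log2 fold changes of 1.98 and −2.23.

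Single libraries moved many members together. Medium replicate 2 was the lowest of its group in 31 of the 48 members (64.6%), beside 32.5% of all genes tested, and activated replicate 1 was the highest of its group in 38 (79.2%), beside 27.9%. Across 15508 genes, the deviation of a library from its group mean varied with exon length. Spearman's rho, given as a description over genes that share a library, was 0.26 for medium replicate 2 and −0.47 for activated replicate 1. It was 0.42 and 0.36 for activated replicates 2 and 3 and ran from −0.25 to 0.24 in the other 5 libraries, so it was not particular to the 2 libraries named. The part of this in the results was not tested. Without activated replicate 1, 26 members were called higher after activation and 33 lower with TRAIL, and without medium replicate 2 the count called higher was 25. Psma2 and Psmb4 lost their call after activation without either library, Psmb7 and Psmc2 without medium replicate 2 (both then just under the fold threshold), and Psmg2 without activated replicate 1. With TRAIL, leaving out single libraries moved the log2 fold change of Psma3 to as little as −0.818 and of Psmc3 to −0.981. Both values miss the fold threshold.

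The counts for other genes of the pathway are read against the all-gene shares, which were 12.4% called higher and 19.5% lower after activation and 16.6% higher and 14.3% lower with TRAIL. Of 6 genes for ubiquitin and its activating enzymes, 1 was called higher and 1 lower after activation, and 1 higher and 0 lower with TRAIL, and each 1 is 16.7%, near the all-gene shares. The median log2 fold change of these 6 genes was 0.20 after activation and −0.14 with TRAIL. Of 13 genes for factors and shuttles bound to the proteasome, 3 (23.1%) were called higher and 0 lower after activation, and 2 (15.4%, near the all-gene share) higher and 5 (38.5%) lower with TRAIL. Zfand2a, a stress-induced proteasome-binding protein, was at 118, 133 and 142 TPM with TRAIL, beside 9.87 to 14 TPM in all other libraries, and rose by 3.20 ± 0.12 over activated cells on the log2 scale. Uchl5, a deubiquitinase of the 19S particle, fell by 1.63 with TRAIL. In TRAIL-treated against medium cells Zfand2a was the only gene of these lists called, apart from 2 of the interferon-gamma genes.

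Of the 3 genes of the VCP segregase, which extracts ubiquitinated proteins, 1 (33.3%) was called higher after activation and 2 (66.7%) lower with TRAIL. Vcp was at 130 ± 3.39, 334 ± 13.8 and 123 ± 13.6 TPM, and Nploc4 fell by 1.14 with TRAIL on the log2 scale. Of 7 regulators and maturation factors, 2 (28.6%) were called higher and 1 (14.3%) lower after activation, and 2 higher and 2 lower with TRAIL (28.6% each). Nfe2l1, a transcription factor of proteasome genes, was at 52.6, 66.8 and 51.2 TPM in medium, 123, 183 and 175 TPM after activation and 43.9, 41.7 and 36.1 TPM with TRAIL. The core maturation factor Pomp was at 54.2 ± 10.1, 162 ± 19.7 and 52.5 ± 3.40 TPM. Nfe2l1 fell by 1.94 ± 0.16 and Pomp by 1.60 ± 0.15 with TRAIL, whereas Nfe2l2, a related factor of the antioxidant response, rose by 1.09 ± 0.09.

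Of 11 partners in class I antigen processing, 2 (18.2%) were called higher after activation and 4 (36.4%) lower with TRAIL. Tapbpl, Canx and Tapbp, which help to load peptides on class I molecules, fell by 1.57, 1.19 and 1.17 on the log2 scale with TRAIL. The fourth was the peptide transporter gene Tap1, named after its values were seen because it overlaps Psmb9, at 224 ± 21.1, 324 ± 12.3 and 154 ± 22.8 TPM. Of 8 genes of interferon-gamma signaling, 2 (25.0%) were called higher and 1 (12.5%) lower after activation, 3 higher and 3 lower with TRAIL (37.5% each), and 2 (25.0%, beside 2.49% of all genes) higher and 0 lower with TRAIL against medium. Ifng was at 9.19 ± 1.30, 216 ± 31.1 and 41.3 ± 9.21 TPM, and Jak2 fell by 1.44 and Ifngr2 rose by 1.31 with TRAIL on the log2 scale. Irf1, a transcription factor of immunoproteasome genes that was named after its values were seen, was at 230.5 ± 8.85, 455 ± 49.5 and 436 ± 59.1 TPM, and its activated and TRAIL-treated libraries overlapped.

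**Figure D5:**
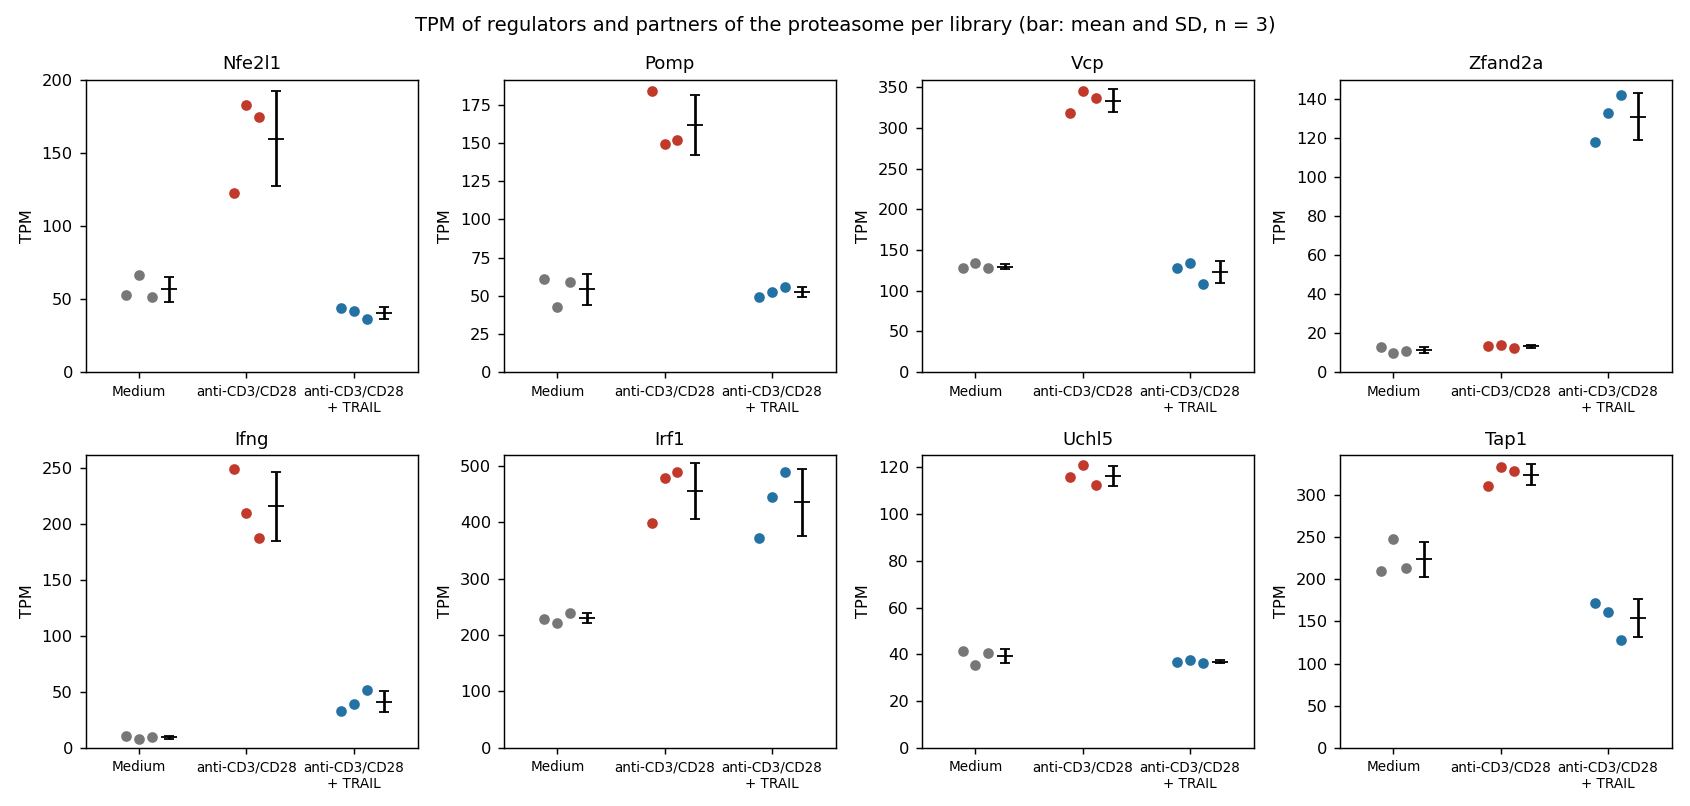
TPM per library (points, y axis from 0) of 8 regulators and partners of the proteasome, with the mean and SD of 3 libraries. Nfe2l1, Pomp, Vcp and Ifng are highest in the activated libraries, Zfand2a is near 131 TPM in the TRAIL-treated libraries, and Irf1 overlaps between activated and TRAIL-treated libraries.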

How the data were processed

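The authors extracted RNA with TRIzol, prepared libraries with a SureSelect mRNA kit and sequenced paired-end reads. The submitters' processing notes list Trimmomatic 0.36, HISAT2 2.1.0, SAMtools 1.2, StringTie 2.1.2 and DESeq2. The notes name a human build and the study methods the mouse build GRCm38, and all 50 members lay at their GENCODE M21 (GRCm38) loci. The deposited values are TPM per gene, and the step that made them is not given in the sources used here. Groups and replicate numbers came from the labels.

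Log2 values with a pseudocount of 1 TPM, which understates changes of low genes, were fitted with limma 3.58.1 in R 4.3.3 for all 9 libraries, with a trend of the variance, after the filter on low values. The immunoproteasome ratios were compared with an exact permutation test on log2 values in Python 3.11.15 with scipy 1.17.1. The limma call between TRAIL-treated and activated cells was tested on simulated data with 200 of 15536 genes changed and independent noise. It recovered 93% to 98.5% of these genes with 2 to 5 false calls. The simulation held no shifts shared across a library and far fewer changed genes than these data. The permutation test was not part of it. Alternatives varied the pseudocount (0.1 and 5), filter, scaling, trend, libraries in the fit, replicate block and call rule, and left out each library in turn. The call at the adjusted p alone under another scaling was added after seeing the data. Named genes were Psmb5 to Psmb10, Psme1 to Psme4, Psmf1, members called in a comparison, the highest and lowest of each class, and of each other list up to 3 called between TRAIL-treated and activated cells. The members and gene lists were chosen with earlier results of these data known. Paaf1 was not analysed here, and some genes of the lists are not reported here.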

Additional observations from a re-analysis of the deposited data

How the results depend on the processing

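With a replicate block the counts of called members were 29 higher after activation and 35 lower with TRAIL, as without it, and the block changed no call among 135 comparisons of named genes. The numbers are not known to pair libraries, since the correlations of deviations between libraries of one number ran from −0.306 to 0.295. Leaving out single libraries gave 25 to 33 members called higher after activation, 33 to 36 called lower with TRAIL and 0 in the other counts. At the adjusted p alone, 1 member was lower after activation (2 with quantile normalization) and 16 were lower with TRAIL than in medium, 5 with median-of-ratios scaling and 9 with quantile normalization. With either scaling 44 were then higher after activation, and with quantile normalization 1 was higher with TRAIL. With median-of-ratios scaling 36 members were called higher after activation and 34 lower with TRAIL, and with quantile normalization 26 and 30. All-gene shares are not given here for these alternatives. Over all alternatives, 2348 comparisons of named genes kept their side of the threshold, 58 gained a call (37 of them where the fold rule was dropped), 24 lost it (9 of them under quantile normalization) and 0 reversed.

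For Psmb8 to Psmb5, leaving out single libraries gave log2 ratio differences of −0.821 to −0.647 after activation, 0.105 to 0.284 with TRAIL and −0.631 to −0.452 with TRAIL against medium. For Psmb9 to Psmb6 they were −0.648 to −0.482, −0.176 to 0.162 and −0.751 to −0.413, and for Psmb10 to Psmb7 −1.44 to −1.21, 1.19 to 1.33 and −0.191 to 0.0338. Without medium replicate 2 the difference for Psmb10 to Psmb7 between TRAIL-treated and medium cells turned to 0.0338, and the exact permutation values adjusted over the 3 pairs were 0.0643 for this ratio and for Psmb8 to Psmb5. Without TRAIL-treated replicate 1 the adjusted value for Psmb9 to Psmb6 was 0.0107 and its difference between TRAIL-treated and activated cells turned to −0.176, and without TRAIL-treated replicate 3 the value was 0.0357. The cause was not tested. Depth is unknown for TPM, so counting error could not be given.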

Other observations

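Of the 5 pseudogene names that the rule left out, Psma5-ps was the only one detected at several TPM, at 10.5, 6.70 and 5.39 TPM in medium, 26.5, 16.8 and 17.6 TPM after activation and 6.14, 8.03 and 5.87 TPM with TRAIL. The activated libraries were the highest, and Psma5 is its near-identical parent gene.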
